A study of Mus musculus with 39 samples.

Results

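Integrins are cell surface receptors made of 1 alpha and 1 beta chain, and the genes described here are the 10 subunit genes Itgav, Itga5, Itga8, Itga11, Itgb1, Itgb5, Itga4, Itgal, Itgam and Itgb2. They were chosen by symbol, through the Ensembl identifiers of the count files, out of 37583 genes. Cortical bone of mouse femurs gave RNA for 39 libraries in 2 experiments, each with a wild type (WT) group of its own. In the Sik2/3 experiment, 8 libraries carried the label Sik2/3 DKO, a double knockout of the salt-inducible kinases Sik2 and Sik3, and 8 the label WT. The C1HR experiment held 12 libraries of mice with the col1a1-Pth1r H223R transgene (C1HR), a mutant parathyroid hormone receptor driven by a type I collagen promoter that is active in osteoblasts and other collagen-making cells, and 11 WT libraries. The strain, age and sex of the animals, and the Cre driver or cells of the Sik2/3 deletion, are not given in the sources used here. Both mutants were used by the study as models of high trabecular bone mass, and the comparisons below ask how each differs from its own WT group.

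An alpha and a beta chain pair in the cell, and the pair binds matrix or another cell outside and the actin cytoskeleton, through adaptors such as talin and kindlin, inside. Beta1 (Itgb1) is the partner of the largest number of alpha chains and is made by most cells, whereas beta2 (Itgb2) is made by leukocytes and is needed there to bring its alpha chains to the surface. In bone, beta1 and alphav integrins anchor osteoblasts, osteocytes, fibroblasts and osteoclasts to collagen, fibronectin and osteopontin, and beta2 and alpha4 integrins hold marrow leukocytes to each other, to endothelium and to stroma.

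The mesenchymal members were 4. Itga5 (ENSMUSG00000000555, chromosome 15, 103174720-103197194, minus strand) encodes the alpha chain of the classical fibronectin receptor. Itga8 (ENSMUSG00000026768, chromosome 2, 12028259-12223547, minus strand) encodes a receptor chain for nephronectin and is known from smooth muscle, mesangial and other mesenchymal cells. Itga11 (ENSMUSG00000032243, chromosome 9, 62525633-62631789, plus strand) encodes a collagen receptor chain of fibroblasts and other mesenchymal cells. Itgb5 (ENSMUSG00000022817, chromosome 16, 33829751-33949239, plus strand) pairs with alphav to bind vitronectin.

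Another 3 members were placed in neither class. Itgb1 (ENSMUSG00000025809, chromosome 8, 131209554-131257100, plus strand) is the common beta chain. Itgav (ENSMUSG00000027087, chromosome 2, 83564554-83647073, plus strand) pairs with several beta chains and is made by osteoclasts as well as mesenchymal cells. Itga4 (ENSMUSG00000027009, chromosome 2, 79095583-79173280, plus strand) pairs with beta1 or beta7 and binds VCAM1 and fibronectin on blood cells.

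The leukocyte members were 3. Itgal (ENSMUSG00000030830, chromosome 7, 134439774-134478651, plus strand) encodes the alpha chain of LFA-1, a receptor for the ICAM proteins. Itgam (ENSMUSG00000030786, chromosome 7, 135206154-135271674, plus strand) encodes the alpha chain of Mac-1, a receptor of neutrophils, monocytes and macrophages for complement C3 fragments and fibrinogen. Itgb2 (ENSMUSG00000000290, chromosome 10, 76992997-77028453, plus strand) encodes the beta chain of both. These gene coordinates are on NCBIM37, the assembly that mm9 names. Whether reads were counted by strand is not given in the sources used here. Without strand, a read on exons of more than 1 gene counts for neither, and such overlap touched 5.90% of the exon bases of Itgav (with Gm13684), 5.07% of Itga8 (with E030013I19Rik) and 8.04% of Itga4 (with Cerkl), each partner lying on the opposite strand. None of the exon bases of the other 7 members overlapped another annotated gene.

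Promoter windows of 300 bases, 250 before and 50 after the transcript start, were found for 8 of the 10 members in RefSeq (GRCm38.p6), and those of Itgal and Itgb2 were not found there. The windows shown belong to members whose levels moved in opposite directions in both comparisons below, a leukocyte gene (Itgam) against mesenchymal genes (Itga11 and Itga5). Capitals mark GAGGAAG, a sequence that the myeloid factor PU.1 can bind, and the GC box GGGCGG of Sp1-like factors, each on either strand, so that a match on the minus strand appears as the reverse complement. No marked matches overlap. The Itgam window is chr7:128062390-128062689 (plus strand), the Itga11 window chr9:62677605-62677904 (plus strand) and the Itga5 window chr15:103366742-103367041 (minus strand), all on GRCm38.p6 and printed 5′ to 3′ in the direction of the gene.
Itgam: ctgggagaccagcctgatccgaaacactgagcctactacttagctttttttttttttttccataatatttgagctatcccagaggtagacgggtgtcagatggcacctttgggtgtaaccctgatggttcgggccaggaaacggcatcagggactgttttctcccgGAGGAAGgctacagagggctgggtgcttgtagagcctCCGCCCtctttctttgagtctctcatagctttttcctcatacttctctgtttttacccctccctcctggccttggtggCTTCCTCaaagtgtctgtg
Itga11: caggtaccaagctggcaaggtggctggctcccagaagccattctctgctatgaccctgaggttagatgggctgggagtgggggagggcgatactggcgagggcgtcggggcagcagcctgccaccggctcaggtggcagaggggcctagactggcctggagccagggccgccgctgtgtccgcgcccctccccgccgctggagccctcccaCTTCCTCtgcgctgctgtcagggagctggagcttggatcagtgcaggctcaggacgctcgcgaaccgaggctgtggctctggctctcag
Itga5: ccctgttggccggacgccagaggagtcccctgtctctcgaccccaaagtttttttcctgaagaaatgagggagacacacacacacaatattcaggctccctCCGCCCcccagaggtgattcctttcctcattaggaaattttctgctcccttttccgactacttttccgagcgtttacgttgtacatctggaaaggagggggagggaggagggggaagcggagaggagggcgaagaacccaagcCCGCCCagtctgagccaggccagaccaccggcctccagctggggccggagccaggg
Counted from the transcript start at 1, with -1 just before it, the PU.1 sequence began at -84 and, in its minus strand form, at 32 in Itgam, and its minus strand form began at -39 in Itga11 and at -8 in Itgav. Across 27025 promoter windows of the same length, 13.5% held it. The GC box in its minus strand form began at -47 in Itgam and at -149 and -6 in Itga5, and it was also in the windows of Itgav, Itgb1, Itgb5 and Itga4, against 35.9% of promoters. The half-site TGACG of the cAMP response element was in 1 of the 8 windows, that of Itgb1 at -21, against 21% of promoters, and the full element TGACGTCA was in 0 of 8, against 1.88%. These matches are letters in a window and were not tested for binding.

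Reads assigned to genes ran from 11444686 to 24922490 per library. Sik2 went against the label of the knockout, at 29.7 ± 6.60 CPM (read counts scaled by library size) in the libraries labelled DKO (SD, n = 8) and 19.1 ± 3.20 in their WT group (SD, n = 8), a log2 change of 0.64 (SE 0.14, edgeR adjusted p = 0.00127), and Sik3 had -0.21 (SE 0.14, edgeR adjusted p = 0.223). Counts cover all exons of a gene, so they do not show the loss of a single exon, and every direction given below for these libraries rests on their labels. The libraries WT 5 and WT 6 of the Sik2/3 experiment lay beside those labelled DKO on the first principal component of all genes, and C1HR 8 and C1HR 9 lay nearest their WT group, so results are also given without them. Skeletal muscle markers summed to at most 29310 CPM in the WT group of Sik2/3, or 5268 CPM without WT 5 and WT 6. Under label DKO their sum reached 8022 CPM. In WT 5, 41.2% of reads had no unique position. The median share of reads without a unique position was 29.7% in C1HR and 48.7% in its WT group, and 30.8% and 26.8% in the libraries labelled DKO and their WT group. The study's design text says that marrow was flushed out in the Sik2/3 experiment and not in the C1HR experiment, and the extraction protocol of each library says that it was flushed, so flushing is not settled for C1HR and its WT group. Bone markers were present in all 4 groups, with osteoblast markers summing to between 53260 and 435900 CPM and osteocyte markers to between 326 and 7443 CPM, and no marker of either list at 0. The labels number the libraries without saying that each is a separate mouse, so p-values measure the spread between libraries.

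Under label DKO, the mesenchymal chains Itga5, Itga11 and Itgb5 and the widely made chains Itgb1 and Itgav were lower than in the WT group, by 1.46-fold for Itgb1 to 3.03-fold for Itgb5. The leukocyte chains Itgal, Itgam and Itgb2, and Itga4, were higher, by 1.96-fold for Itgb2 to 5.24-fold for Itgal. Itga8 went against the other mesenchymal members and was 1.46-fold higher. Of the 10 members 5 rose and 5 fell, where 24.1% of the 15479 genes tested rose and 30.9% fell (edgeR's quasi-likelihood test, Benjamini-Hochberg adjusted p under 0.05, 55.0% called in all). Of all calls 43.8% were higher, and 66.2% when libraries were scaled by their totals alone. The change exceeded 2-fold in 6 of 10 members, against 17.4% of genes. In bulk tissue, fewer cells of a type and less RNA per cell cannot be told apart.

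Itgb5 ran from 88.5 to 131 CPM under label DKO (median 118) and from 161 to 470.0 CPM in the WT group (median 389.7). All 8 libraries labelled DKO lay under the lowest WT library, although WT 5 and WT 6, at 170.1 and 161 CPM, were far under the other 6 WT libraries, which began at 365 CPM. On the log2 scale the fold change was -1.60 (SE 0.21, edgeR adjusted p = 3.35e-05) and -1.80 without WT 5 and WT 6. Itga11, the collagen receptor chain, ran from 53.1 to 116 CPM (median 81.8) under label DKO and from 78.7 to 234 CPM (median 189) in WT. Its log2 fold change was -1.12 (SE 0.21, edgeR adjusted p = 0.000433). The overlap of the groups came from WT 5 alone, at 78.7 CPM. WT 6 was low for its group, at 122 CPM, but lay above every library labelled DKO. Itga5, the fibronectin receptor chain, ran from 59.9 to 97.8 CPM (median 74.7) under label DKO and from 79.3 to 209.9 CPM (median 159) in WT. Its groups overlapped through WT 5 and WT 6 alone, at 80.2 and 79.3 CPM, and its log2 fold change was -0.96 (SE 0.20, edgeR adjusted p = 0.000963).

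Itga8 was the lowest of the 10 members. It ran from 3.03 to 7.71 CPM (median 4.31) under label DKO and from 1.94 to 4.86 CPM (median 2.97) in WT, and its smallest count in these 16 libraries was 44 reads. The groups overlapped, with and without WT 5 and WT 6, which were here the 2 highest WT libraries at 4.53 and 4.86 CPM. The log2 fold change was 0.54 (SE 0.22, edgeR adjusted p = 0.0445), and 0.80 (edgeR adjusted p = 0.00334) without those 2 libraries. The call was lost when any of 10 single libraries was left out (DKO 4, 5, 6 or 8, WT 1, 2, 3, 4, 7 or 8), with an adjusted p of up to 0.103, and without the filter on low counts. In limma voom the log2 fold change was 0.89 (limma adjusted p = 0.000272). The antisense partner E030013I19Rik had a mean of 0.0803 CPM under label DKO and 0.0622 CPM in WT.

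Itgb1, the common beta chain, varied little within a group, with coefficients of variation of 10.5% under label DKO and 8.11% in WT. It ran from 464 to 656 CPM (median 578) under label DKO and from 732 to 937 CPM (median 826) in WT, with no overlap, and WT 5 lay among the other WT libraries at 814 CPM while WT 6 was the lowest. The log2 fold change was -0.54 (SE 0.085, edgeR adjusted p = 0.000114), or -0.33 with library totals (edgeR adjusted p = 0.00145). Itgav, the alpha chain shared by osteoclasts and mesenchymal cells, ran from 128 to 227 CPM (median 174) under label DKO and from 197 to 579 CPM (median 464) in WT. Of its WT libraries, WT 5 and WT 6 were lowest at 263 and 197 CPM, and 7 of 8 libraries labelled DKO lay under both. The log2 fold change was -1.31 (SE 0.19, edgeR adjusted p = 6.74e-05). Itga4 moved with the leukocyte genes, from 16.6 to 82.7 CPM (median 28.8) in WT and from 76.5 to 237 CPM (median 139.7) under label DKO. WT 5 and WT 6, at 82.7 and 79.1 CPM, reached the lowest library labelled DKO, and the next WT library was at 42.5 CPM. Its log2 fold change was 1.84 (SE 0.35, edgeR adjusted p = 0.000469) and 2.45 without those 2 libraries.

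Itgal, the alpha chain of LFA-1, showed the widest change of the 10 in this comparison. It ran from 58.4 to 153 CPM (median 101) under label DKO and from 6.62 to 42.6 CPM (median 15.7) in WT, with no overlap. WT 5 and WT 6 were the 2 highest WT libraries at 36.3 and 42.6 CPM, and the other 6 ended at 19.2 CPM. This gave a log2 change of 2.39 (SE 0.36, edgeR adjusted p = 9.11e-05) and 3.01 without those 2 libraries. Itgam ran from 128 to 375 CPM (median 249) under label DKO and from 73.3 to 129.7 CPM (median 109) in WT. The overlap came from 1 library on either side, DKO 7 at 128 CPM and WT 6 at 129.7 CPM, and the log2 fold change was 1.32 (SE 0.18, edgeR adjusted p = 4.99e-05). Itgb2, their shared beta chain, ran from 158 to 360 CPM (median 254) under label DKO and from 122 to 147 CPM (median 130) in WT, with no overlap. Here WT 5 and WT 6 did not stand apart, at 134 and 126 CPM, and the log2 fold change was 0.97 (SE 0.13, edgeR adjusted p = 4.21e-05). The ranges of the groups did not overlap for 4 of 10 members, against 10.0% of genes, and without WT 5 and WT 6 for 9 of 10, Itga8 being the exception, against 36.2% of genes.

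**Figure D1:**
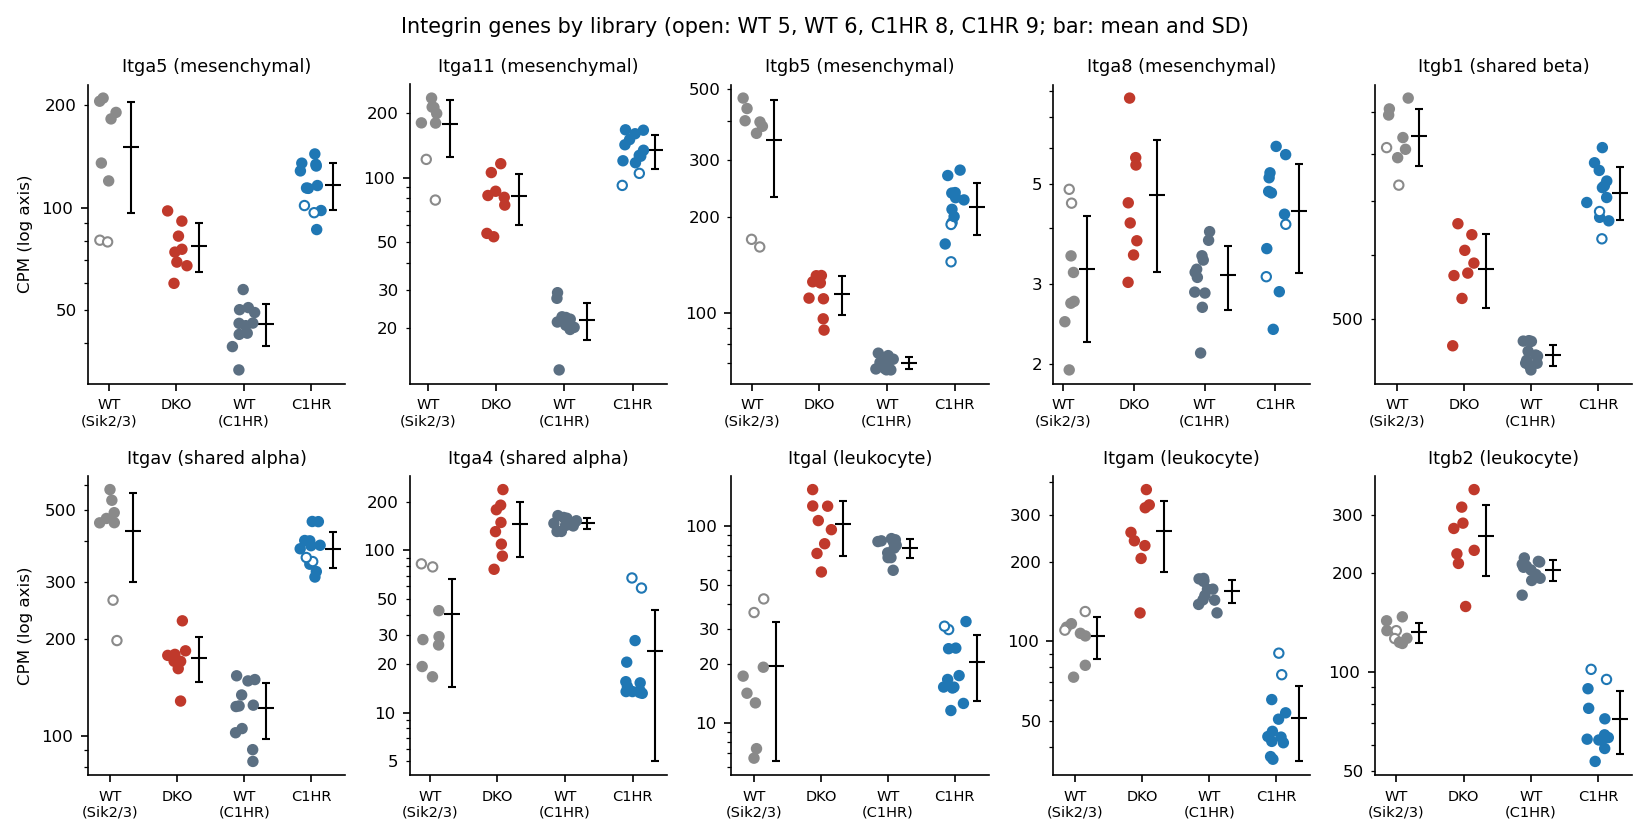
CPM (log axis) of the 10 integrin genes in each library of the 4 groups, with 1 point per library and a bar for the mean and SD beside each group. Open points are WT 5, WT 6, C1HR 8 and C1HR 9. Itgb5 of the libraries labelled DKO ends at 131 CPM, under all WT libraries of that experiment, and Itgal of C1HR ends at 32.7 CPM, under all of its WT libraries.

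Markers of other cell types moved in the same comparison, and their part in these results was not tested. Over all genes tested the median log2 fold change was -0.09, and 24.1% of genes rose and 30.9% fell. Of the pan-leukocyte markers 5 of 7 rose and 0 fell (median 0.79), and their summed level ran from 1504 to 3099 CPM under label DKO and from 1034 to 1564 CPM in WT. Granulocyte markers summed to between 9154 and 23230 CPM under label DKO and between 815 and 15350 CPM in WT, with 12 of 13 higher, and the WT maximum fell to 2769 CPM without WT 5 and WT 6. The counts that rose were 10 of 10 for B lineage markers (median 2.23), 7 of 9 for T and NK cell markers (median 2.23), 9 of 11 for erythroid markers (median 2.73) and 7 of 7 for megakaryocyte markers (median 2.38), with 0 lower in these 4 lists. Monocyte and macrophage markers were mixed, with 3 higher and 3 lower of 10 (median 0.07). On the mesenchymal side, 0 of 10 osteoblast markers rose and 3 fell (median -0.48), with 2 higher and 6 lower without WT 5 and WT 6, and 1 of 10 fibroblast and stromal markers rose and 5 fell (median -0.37). Osteoclast markers fell in 7 of 7 (median -2.01), and their sum ran from 3566 to 8274 CPM under label DKO and from 4434 to 30920 CPM in WT, beginning at 16750 CPM without WT 5 and WT 6. Smooth muscle and pericyte markers, the list nearest to Itga8, had 0 higher and 2 lower of 7 (median -0.36). With all libraries, the shares lower in the osteoblast and smooth muscle lists were near that over all genes. Of the remaining lists, osteocyte markers had 2 higher and 0 lower of 7, endothelial markers 1 and 1 of 7, mast cell markers 1 and 5 of 6, skeletal muscle markers 0 and 1 of 7, adipocyte markers 0 and 1 of 5, and cartilage markers 0 and 0 of 5. None of the measured markers in these lists was at 0.

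In C1HR bone the pattern was the other way round for 9 of the 10 members. Itga5, Itga11, Itgb5, Itgav and Itgb1 were higher than in the WT group, by 1.59-fold for Itgb1 to 6.13-fold for Itga11. Itgal, Itgam, Itgb2 and Itga4 were lower, by 2.84-fold for Itgb2 to 6.16-fold for Itga4. Itga8 was again higher, by 1.38-fold. Of the 10 members 6 rose and 4 fell, where 43.7% of the 13976 genes tested rose and 40.6% fell (edgeR's quasi-likelihood test, 84.3% called in all), a share so high that passing the test sets no gene apart. Of all calls 51.8% were higher, and 36% when libraries were scaled by their totals alone. The change exceeded 2-fold in 8 of 10 members, against 38.9% of genes.

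Itga11 had the widest rise, from between 12.8 and 29.2 CPM in WT (median 21.8) to between 92.0 and 167 CPM in C1HR (median 131). The lowest C1HR libraries were C1HR 9 and C1HR 8, at 92.0 and 105 CPM, and they were still far above every WT library. The log2 fold change was 2.62 (SE 0.12, edgeR adjusted p = 3.61e-16). Itgb5 ran from 66.5 to 75.0 CPM in WT (median 70.1), a range of few CPM, and from 145 to 279.9 CPM in C1HR (median 219). Its log2 fold change was 1.62 (SE 0.086, edgeR adjusted p = 6.22e-15). Itga5 ran from 33.3 to 57.4 CPM in WT (median 45.7) and from 86.2 to 144 CPM in C1HR (median 115). These 3 genes showed no overlap between the groups, and Itga5 had a log2 change of 1.36 (SE 0.091, edgeR adjusted p = 4.87e-13).

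Itga8 ran from 2.12 to 3.92 CPM in WT (median 3.19) and from 2.39 to 6.04 CPM in C1HR (median 4.52), with counts down to 32 reads. The groups overlapped, and 8 of 12 C1HR libraries lay above the highest WT library. The log2 fold change was 0.46 (SE 0.14, edgeR adjusted p = 0.00374). That call depended on the scaling, with 0.05 (edgeR adjusted p = 0.717) when libraries were scaled by their totals alone. That other scaling moved the median over all genes tested from 0.05 to -0.35 in this comparison, and from -0.09 to 0.12 in the Sik2/3 comparison.

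Itgb1 ran from 433 to 471 CPM in WT (median 451) and from 628 to 814 CPM in C1HR (median 716), without overlap. Its coefficient of variation was 2.99% in WT, the lowest of the 10 members, and its log2 fold change was 0.66 (SE 0.045, edgeR adjusted p = 6.23e-13), or 0.26 with library totals (edgeR adjusted p = 7.23e-05). Itgav ran from 83.2 to 153 CPM in WT (median 124) and from 310.1 to 461 CPM in C1HR (median 384), with a log2 change of 1.64 (SE 0.10, edgeR adjusted p = 8.5e-14). Itga4 fell from between 131 and 164 CPM in WT (median 147) to between 13.1 and 67.6 CPM in C1HR (median 14.8). C1HR 8 and C1HR 9 stood apart here, at 58.6 and 67.6 CPM, and the other 10 ended at 27.8 CPM. On the log2 scale the fold change was -2.62 (SE 0.29, edgeR adjusted p = 1.06e-08) and -3.32 without those 2 libraries.

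Itgal ran from 59.6 to 86.3 CPM in WT (median 79.8) and from 11.6 to 32.7 CPM in C1HR (median 17). Its highest C1HR library was C1HR 4 and not C1HR 8 or C1HR 9, which were at 29.8 and 31 CPM, and the log2 fold change was -1.92 (SE 0.16, edgeR adjusted p = 3.96e-11). Itgam ran from 128 to 173 CPM in WT (median 158) and from 35.9 to 90.3 CPM in C1HR (median 44.7), with C1HR 8 and C1HR 9 highest at 90.3 and 74.8 CPM. Its log2 fold change was -1.58 (SE 0.13, edgeR adjusted p = 1.98e-11). Itgb2 ran from 171 to 222.7 CPM in WT (median 209) and from 53.4 to 102 CPM in C1HR (median 63.7), again with C1HR 8 and C1HR 9 highest, at 102 and 94.9 CPM. The log2 fold change was -1.51 (SE 0.094, edgeR adjusted p = 1.38e-13). The ranges did not overlap for 9 of 10 members, Itga8 being the exception, against 52.8% of genes, and for the same count without C1HR 8 and C1HR 9, against 57.8% of genes.

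**Figure D2:**
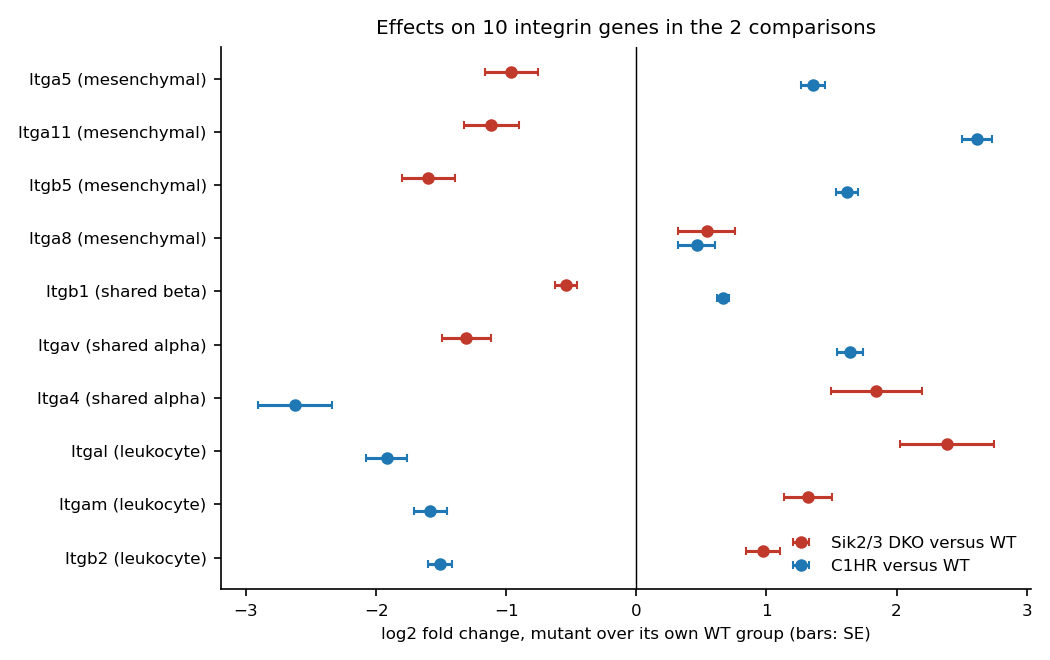
Log2 fold change of each integrin gene, mutant over its own WT group, with the SE as a bar, for the libraries labelled Sik2/3 DKO and for C1HR. Itga8 lies right of 0 in both comparisons, at 0.54 and 0.46, and the other 9 genes lie on opposite sides of 0.

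Here too the markers of other cells moved, and their part was not tested. Over all genes tested the median log2 fold change was 0.05, and 43.7% of genes rose and 40.6% fell. Of the pan-leukocyte markers 1 of 7 rose and 6 fell (median -1.20), with sums from 927 to 1357 CPM in C1HR and from 1666 to 2101 CPM in WT. Granulocyte markers fell in 13 of 13 (median -3.57), with sums from 243 to 5426 CPM in C1HR, or up to 1469 CPM without C1HR 8 and C1HR 9, and from 12790 to 19030 CPM in WT. The counts that fell were 9 of 10 for B lineage markers (median -2.14), 4 of 7 for T and NK cell markers with 1 higher (median -0.84), 11 of 11 for erythroid markers (median -3.44) and 7 of 7 for megakaryocyte markers (median -4.48). Monocyte and macrophage markers had 6 higher and 3 lower of 10 (median 0.84). All 10 fibroblast and stromal markers rose (median 1.61), as did 10 of 10 osteoblast markers (median 1.71), 7 of 7 osteoclast markers (median 1.76), 6 of 6 smooth muscle and pericyte markers (median 1.51) and 5 of 6 osteocyte markers (median 2.13). Osteoclast markers summed to between 10330 and 19370 CPM in C1HR and between 3453 and 5159 CPM in WT. Of the remaining lists, endothelial markers had 6 higher and 1 lower of 7, mast cell markers 5 and 1 of 6, skeletal muscle markers 0 and 0 of 7, adipocyte markers 2 and 0 of 4, and cartilage markers 1 and 0 of 6. None of the measured markers in these lists was at 0.

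The difference between the effects was tested in 1 fit of all 39 libraries, and it passed for 9 of 10 members, against 80.2% of the 15387 genes tested (42.0% higher and 38.1% lower). Of all calls 52.4% were higher, and 36.2% with library totals. The C1HR effect was the higher for 5 members and the lower for 4. On the log2 scale, the C1HR effect minus the effect under label DKO was 3.67 for Itga11 (SE 0.23, edgeR adjusted p = 1.52e-16) and 3.15 for Itgb5 (SE 0.21, edgeR adjusted p = 2.38e-16). On the leukocyte side it was -4.37 for Itgal (SE 0.36, edgeR adjusted p = 1.53e-13) and -4.54 for Itga4 (SE 0.46, edgeR adjusted p = 2.21e-11). For Itga8 it was -0.13 (SE 0.25, edgeR adjusted p = 0.620), which did not pass, but the difference passed with library totals (-0.68, edgeR adjusted p = 0.0164) and was 0.0044 with upper-quartile scaling. For Itgb1 it was 1.14, or 0.59 with library totals, and passed in both. The effects were lower under label DKO and higher in C1HR, past the threshold in both, for 5 of 10 members, a class that held 25.8% of the 13821 genes tested in both. They were higher under label DKO and lower in C1HR for 4 of 10 members, against 21.4% of genes. The remaining member, Itga8, was higher in both, and genes called in the same direction in both made up 3.88%.

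The contrast of the classes was described for each library as the mean log2(CPM + 0.5) of Itga5, Itga8, Itga11 and Itgb5 minus that of Itgal, Itgam and Itgb2, without a test. It ran from -3.02 to -1.21 under label DKO (median -2.16) and from -0.76 to 1.08 in their WT group (median 0.43). WT 5 and WT 6 were the 2 WT libraries under 0, at -0.76 and -0.73, and the other 6 began at 0.19, so the groups did not overlap either way. In C1HR it ran from -0.39 to 1.09 (median 0.72), with C1HR 9 and C1HR 8 the 2 libraries under 0, and in the WT group from -2.75 to -2.17 (median -2.62). The WT group of the C1HR experiment therefore lay with the libraries labelled DKO, and C1HR with the WT group of the Sik2/3 experiment. Without Itga8, the lowest member, the difference began at 0.33 in the WT group of the Sik2/3 experiment and at 0.84 in C1HR. It then ended at -0.06 under label DKO and at -1.23 in the WT group of C1HR. That WT 5, WT 6, C1HR 8 and C1HR 9 lay under 0 thus rests on Itga8. The WT groups differ in depth, in the share of reads without a unique position and possibly in flushing, which cannot be told apart here.

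**Figure D3:**
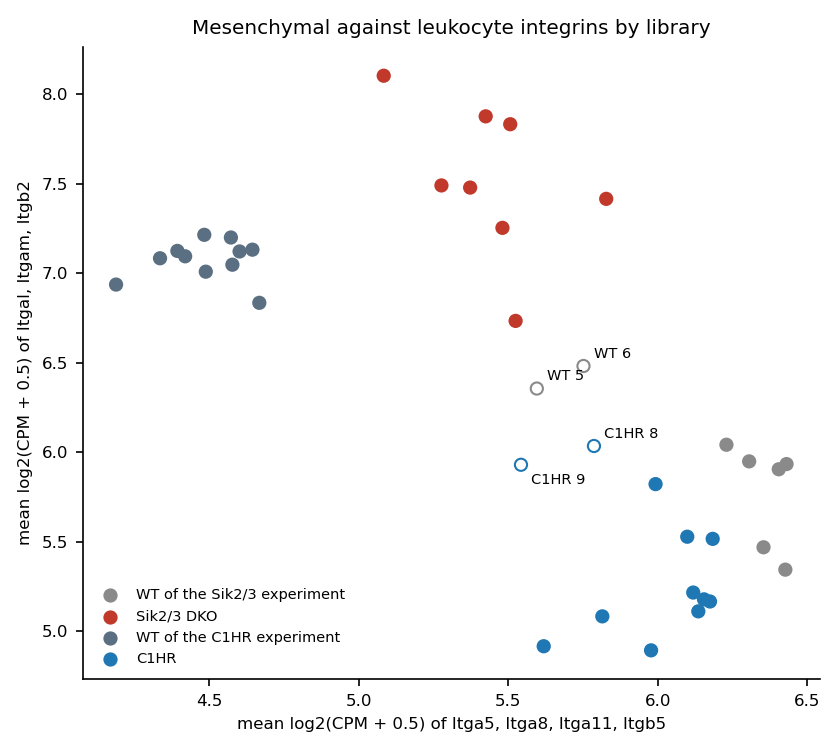
Mean log2(CPM + 0.5) of the 4 mesenchymal genes (x axis) against that of the 3 leukocyte genes (y axis), with 1 point per library in the 4 groups and open points for WT 5, WT 6, C1HR 8 and C1HR 9. The open points lie between the clouds, at differences of -0.76, -0.73, -0.25 and -0.39.

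Ratios of 2 genes within a library do not move with the scaling, and 22 were tested, 11 per experiment, by two-sided permutation of the libraries (exact for 8 against 8, where the smallest possible p is 0.000155, and 100000 resamples for C1HR, where it is 2e-05), with Benjamini-Hochberg adjustment over the 22. Ptprc encodes CD45, a surface protein of nearly all leukocytes, and had a log2 change of 1.44 under label DKO and -1.20 in C1HR. Relative to Ptprc, Itgal was higher in all 8 libraries labelled DKO than in any of the 8 WT libraries, by a mean of 1.14 on the log2 scale (adjusted exact permutation p = 0.000427). Relative to Ptprc it was lower in C1HR, by -0.76 (adjusted permutation p = 7.33e-05), again with no overlap. Itgal transcripts thus changed by more than Ptprc transcripts in both experiments. Itga4 relative to Ptprc differed in the same directions, with overlapping groups, at 0.56 (adjusted exact permutation p = 0.00798) and -1.66 (adjusted permutation p = 7.33e-05).

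The myeloid chain behaved differently from Itgal in the Sik2/3 experiment. Relative to Ptprc, Itgam differed by -0.15 under label DKO (adjusted exact permutation p = 0.317), and by -0.28 (adjusted permutation p = 0.0293) without WT 5 and WT 6. Itgb2 was lower relative to Ptprc, by -0.49 (adjusted exact permutation p = 0.0346). Itgam relative to Itgal was lower by -1.29 (adjusted exact permutation p = 0.000932). In C1HR, Itgam and Itgb2 were also lower relative to Ptprc, by -0.41 (adjusted permutation p = 0.00088) and -0.32 (adjusted permutation p = 0.000489), and Itgam relative to Itgal was higher by 0.34 (adjusted permutation p = 0.00227). The ratio of these 2 leukocyte alpha chains differed from WT in both comparisons, in opposite directions. With all libraries included, the groups overlapped in each ratio of this paragraph.

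Among the partners of beta1, Itga11 relative to Itgb1 was higher in C1HR by 1.93 with no overlap, Itgav by 1.00 with no overlap and Itga5 by 0.68 with overlap (adjusted permutation p = 7.33e-05 for each). Under label DKO, Itgav relative to Itgb1 was lower by -0.70 (adjusted exact permutation p = 0.00635) and Itga11 by -0.54 (adjusted exact permutation p = 0.0292). Itga5 differed by -0.34 (adjusted exact permutation p = 0.118), and by -0.57 (adjusted permutation p = 0.0057) without WT 5 and WT 6. Itga4 moved most against Itgb1, by 2.52 under label DKO (adjusted exact permutation p = 0.000427) and -3.53 in C1HR (adjusted permutation p = 7.33e-05), with no overlap in either. Itga8 relative to Itgb1 was higher under label DKO by 1.02 (adjusted exact permutation p = 0.00227) and differed by -0.28 in C1HR (adjusted permutation p = 0.0559). Within the alphav-beta5 pair, Itgav relative to Itgb5 differed by 0.07 in C1HR (adjusted permutation p = 0.629) and by 0.27 under label DKO (adjusted exact permutation p = 0.0286). With all libraries included, the groups overlapped in each ratio of this paragraph that is not given as without overlap.

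Levels of different genes were compared as counts per kilobase of merged exon length, scaled to the same sum in every library. Itgb1 had the highest and Itga8 the lowest mean per-length level in each of the 4 groups. Itgb1 ran from 350 ± 19.6 in the WT group of C1HR (SD, n = 11) to 654 ± 46.8 in the WT group of Sik2/3 (SD, n = 8). Itga8 lay between 1.37 ± 0.23 and 2.29 ± 0.80 in the same WT group of C1HR and in the libraries labelled DKO. The second place changed between groups. By mean it was held by Itgb2 in the libraries labelled DKO, at 296 ± 70.5, and in the WT group of C1HR, at 211 ± 18.1, and by Itgb5 in C1HR, at 204 ± 34.8, and in the WT group of Sik2/3, at 329 ± 113. Under label DKO the range of Itgb2 overlapped those of Itgb1 and Itgam, with Itgb1 above Itgb2 in 7 of 8 libraries. In the WT group of Sik2/3 the ranges of Itgb5 and Itgb2 overlapped, with Itgb5 the higher in 8 of 8 libraries. In C1HR, Itgb5 lay above Itgav in 12 of 12 libraries with no overlap of the ranges, whereas Itgav, Itga5, Itga11 and Itgb2, the next 4, overlapped their neighbours. Under label DKO the ranges of Itga5, Itgav, Itgal and Itga11 overlapped, with means from 56.0 to 61.3, and no order among these 4 is given. In the WT group of C1HR, Itgal, Itgav, Itga4 and Itga5 likewise overlapped, at means from 33.1 to 38.2.

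The alpha chains that pair with beta2 are Itgal, Itgam, Itgax (CD11c, a complement receptor chain made by dendritic cells and some macrophages and osteoclast precursors) and Itgad. As a share of their summed per-length levels, Itgam was the largest in all 4 groups, from 44.6% ± 4.83 in C1HR (SD, n = 12) to 71.9% ± 5.18 in the WT group of Sik2/3 (SD, n = 8). Itgax held 36.7% ± 6.64 in C1HR and 8.5% ± 1.53 in its WT group (SD, n = 11), with ranges that did not overlap. Itgax was the one alpha chain of beta2 that rose in C1HR, with a log2 change of 0.81 (SE 0.10, edgeR adjusted p = 9.48e-08), and it was also called higher with upper-quartile scaling, library totals and DESeq2. Under label DKO it was not called, at 0.12 (SE 0.16, edgeR adjusted p = 0.565), and Itgal held 25.3% ± 2.23 there and 12.3% ± 5.75 in WT.

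**Figure D4:**
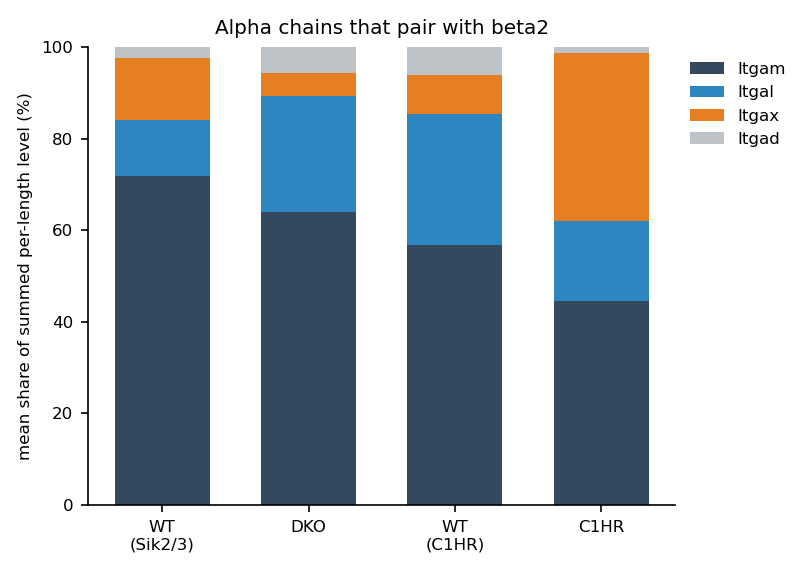
Mean share (%) of each alpha chain that pairs with beta2 in their summed per-length level, in the 4 groups, stacked to 100%. Itgax takes 36.7% in C1HR and 8.5% in its WT group, and Itgam takes the largest share in each group.

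Similar shares were computed for other partner sets. Among the collagen-binding partners of beta1 (Itga1, Itga2, Itga10 and Itga11), Itga11 held 44.4% ± 2.31 in C1HR and 25.9% ± 2.92 in its WT group. Under label DKO Itga11 held 33.2% ± 4.55, and 44.4% ± 6.31 in WT. Among the fibronectin-binding chains Itga4, Itga5, Itga8 and Itgav, Itga4 held 2.73% ± 2.28 in C1HR and 32.6% ± 4.55 in its WT group, and 23.2% ± 8.87 under label DKO and 4.83% ± 4.87 in WT. Itgav held the largest mean share of that set in C1HR, at 55.0% ± 4.28. It did so too in the WT groups of C1HR, at 34.3% ± 3.85, and of Sik2/3, at 51.1% ± 6.2. Under label DKO the largest was Itga5, at 39.2% ± 5.84, with Itgav at 36.15% ± 5.64. In each group the range of the largest overlapped that of the next. Among the beta partners of alphav, Itgb5 held 19.4% ± 2.84 in C1HR and 8.93% ± 0.37 in its WT group, and Itgb3, the osteoclast and platelet chain, held 26.8% ± 2.58 and 43.5% ± 2.71.

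The counts of the lists that follow stand beside the shares over all genes tested. These were 24.1% higher and 30.9% lower under label DKO, and 43.7% higher and 40.6% lower in C1HR. Of 11 other alpha chains, 4 rose and 3 fell under label DKO (median 0.12), and 7 rose and 3 fell in C1HR (median 0.52). With library totals 4 rose and 2 fell under label DKO, where the call of Itga10 was lost, and 4 rose and 3 fell in C1HR, where those of Itga1, Itga2 and Itga7 were lost. Those with the smallest p under label DKO were Itga6, a laminin receptor chain (0.96, SE 0.11, edgeR adjusted p = 1.77e-05), Itga2b, the platelet and megakaryocyte chain (2.39, SE 0.51, edgeR adjusted p = 0.0011), and Itga3, another laminin receptor chain (-0.84, SE 0.21, edgeR adjusted p = 0.00323). In C1HR they were Itgad (-3.55, SE 0.16, edgeR adjusted p = 2.9e-16), the collagen receptor chain Itga10 (2.01, SE 0.10, edgeR adjusted p = 2.7e-15) and Itga6 (-1.39, SE 0.088, edgeR adjusted p = 1.74e-13). Of 5 other beta chains, 0 passed under label DKO in edgeR, with 0 at an unadjusted p under 0.05, 0 in DESeq2 and 3 in limma voom. Itgb7 was called higher there with library totals (0.55, edgeR adjusted p = 0.0288), and Itgb3 lower without WT 5 and WT 6 (-0.40, edgeR adjusted p = 0.0387). In C1HR 2 of 4 rose and 2 fell (median 0.10). They were Itgb8 (1.58, SE 0.17, edgeR adjusted p = 3.15e-09), Itgb7, a partner of alpha4 (-1.20, SE 0.13, edgeR adjusted p = 3.28e-09), Itgb4 (0.41, SE 0.12, edgeR adjusted p = 0.00321) and Itgb3 (-0.21, SE 0.074, edgeR adjusted p = 0.0124). The call of Itgb4 was lost with library totals and that of Itgb3 with upper-quartile scaling. Itgb8 was low, with a mean per-length level of 0.91 in C1HR and 0.30 in its WT group, both under those of Itga8.

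Of 14 matrix ligands tested, 0 rose and 7 fell under label DKO (median -0.64), led by nephronectin, Npnt, the ligand of the Itga8 receptor (-2.20, SE 0.28, edgeR adjusted p = 2.76e-05). Itga8 itself was higher in this comparison. Osteopontin, Spp1, fell by 1.82 on the log2 scale (SE 0.30, edgeR adjusted p = 0.000142) and bone sialoprotein, Ibsp, by 1.09 (SE 0.19, edgeR adjusted p = 0.000224). The collagen chains Col1a1 (-0.76, edgeR adjusted p = 0.00482) and Col1a2 (-0.63, edgeR adjusted p = 0.0201) also passed without WT 5 and WT 6. Vtn, Tgfb1 and Fbn1, none of them called, changed sign under library totals. In C1HR 12 of 13 rose and 0 fell (median 2.06), with Spp1 at 3.00 (SE 0.11, edgeR adjusted p = 4.59e-17), the collagen chain Col1a2 at 2.07 (SE 0.099, edgeR adjusted p = 1.09e-15) and tenascin C, Tnc, at 1.65 (SE 0.082, edgeR adjusted p = 2.4e-15). Tgfb1, not called at 0.09, was called lower at -0.33 under library totals.

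Ligands of the leukocyte integrins had 4 higher and 0 lower of 7 under label DKO (median 0.39) and 3 higher and 2 lower of 7 in C1HR (median 0.13), and Icam4 and Fgb were at 0 in all libraries. Complement C3, whose fragments bind Mac-1, was higher under label DKO (2.37, SE 0.45, edgeR adjusted p = 0.000447) and lower in C1HR (-2.74, SE 0.30, edgeR adjusted p = 1.11e-08). Under label DKO the endothelial ligand Icam2 rose (0.56, SE 0.11, edgeR adjusted p = 0.000555), as did Vcam1, the ligand of alpha4 (1.20, SE 0.36, edgeR adjusted p = 0.0106). In C1HR Jam3 rose (1.90, SE 0.088, edgeR adjusted p = 5.99e-16), as did Icam1, a ligand of LFA-1 and Mac-1 (0.89, SE 0.087, edgeR adjusted p = 5.44e-10). Icam1 thus rose in C1HR while its receptor chains fell. Under label DKO it was not called, at -0.08, and had 0.15 under library totals. In C1HR the calls of F11r and Icam2 changed with the scaling, to 3 higher and 4 lower in the list with library totals.

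Inside the cell, adaptors and activators at the integrin tail were split. Under label DKO 10 were higher and 7 lower of 26 (median 0.15), where 24.1% of all genes rose and 30.9% fell. In C1HR 12 were higher and 13 lower of 26 (median -0.06), where 43.7% of all genes rose and 40.6% fell. Under label DKO those with the smallest p were Apbb1ip, the Rap1 effector RIAM (1.67, SE 0.17, edgeR adjusted p = 1.06e-05), zyxin, Zyx (1.46, SE 0.15, edgeR adjusted p = 1.11e-05), and vinculin, Vcl (0.80, SE 0.097, edgeR adjusted p = 2.39e-05). In C1HR they were kindlin-2, Fermt2 (1.58, SE 0.068, edgeR adjusted p = 2.21e-16), alpha-parvin, Parva (1.85, SE 0.089, edgeR adjusted p = 1.12e-15), and focal adhesion kinase, Ptk2 (1.12, SE 0.058, edgeR adjusted p = 4.38e-15). Scaling by library totals changed the call of Parvb, Fyn and Rap1b under label DKO and of Lims2 in C1HR, and the sign of Pxn in both and of Ilk in C1HR. Pxn in C1HR was called lower with library totals (-0.13, edgeR adjusted p = 0.0391) and higher with upper-quartile scaling (0.36, edgeR adjusted p = 6.17e-05). With library totals the counts were 13 higher and 7 lower under label DKO and 10 higher and 14 lower in C1HR. Of the inhibitors and recycling factors, 1 rose and 2 fell of 5 under label DKO (median -0.16), and 2 rose and 3 fell of 5 in C1HR (median -0.13). These counts turned with the scaling, to 2 higher and 0 lower under label DKO and 0 higher and 4 lower in C1HR with library totals. Under label DKO the call of Dok1 was lost with library totals and DESeq2, and Sharpin was called higher with library totals (0.23, edgeR adjusted p = 0.00976). In C1HR Snx17 rose by 0.11, was called lower with library totals (-0.29, edgeR adjusted p = 2.24e-07), and was not called in DESeq2 or without C1HR 8 and C1HR 9. Filamin A, Flna, which competes with talin for beta tails, rose under label DKO (0.58, SE 0.089, edgeR adjusted p = 9.2e-05) and fell in C1HR (-0.23, SE 0.052, edgeR adjusted p = 0.000282). The icap1 gene Itgb1bp1, whose product binds the beta1 tail, did the reverse (-0.42, SE 0.076, edgeR adjusted p = 0.000331, and 0.65, SE 0.17, edgeR adjusted p = 0.00149). Both calls of Itgb1bp1 were lost with library totals.

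**Figure D5:**
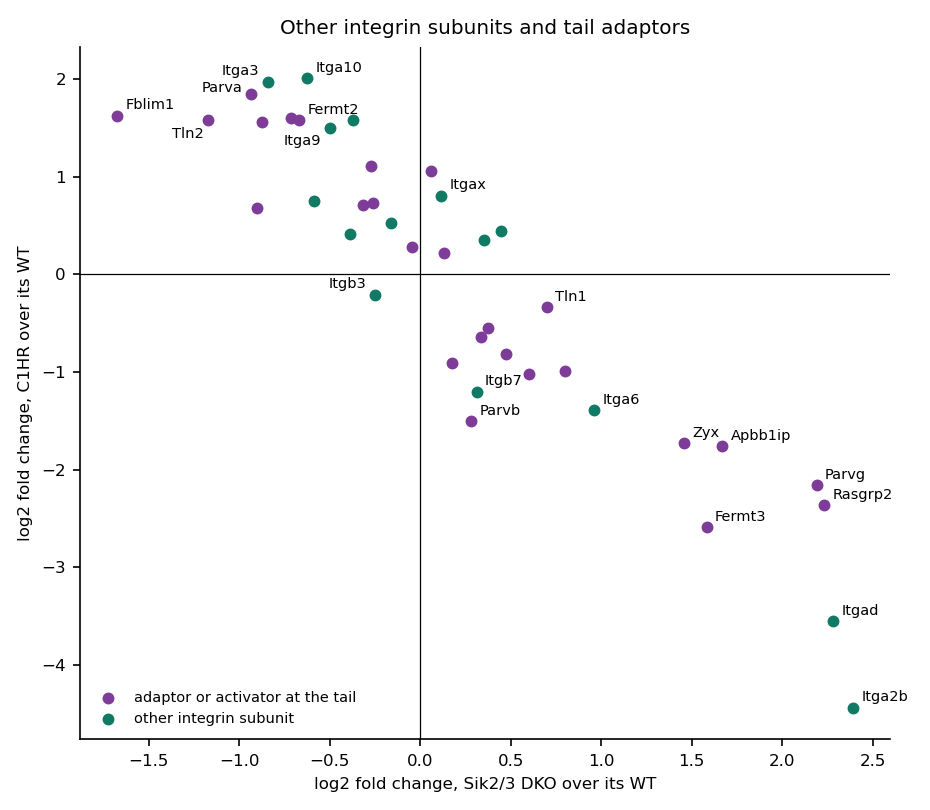
Log2 fold change under label Sik2/3 DKO (x axis) against that in C1HR (y axis), each over its own WT group, for other integrin subunits and for adaptors and activators at the integrin tail, with 1 point per gene tested in both. Fermt2 and Parva lie at the upper left, at 1.58 and 1.85 on the y axis, and Apbb1ip and Zyx at the lower right, at 1.67 and 1.46 on the x axis.

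Likeness was described for 3 members as the mean of the Pearson r of log2 CPM within the 4 groups, over 8223 genes with a mean of at least 10 CPM in each group, with groups of 8, 8, 12 and 11 libraries whose depth and tissue make-up vary for all genes at once, and with WT 5, WT 6, C1HR 8 and C1HR 9 included. For Itgb2 the most alike genes were Mapk14 (mean r 0.80), Stxbp2 (0.80) and Inpp5d (0.76), which encode the kinase p38 alpha, a granule secretion protein and the leukocyte phosphatase SHIP1. For Itga11 they were Col6a2 (0.92), Col5a1 (0.90) and Antxr1 (0.90), which encode 2 collagen chains and a collagen receptor. For Itgb1 they were Tspan31 (0.78), Ppib (0.76) and Sar1a (0.74), of which the latter 2 encode a collagen-folding enzyme and a coat protein of secretory vesicles. The lowest of the 4 group values was 0.66 among the genes named for Itgb2, 0.80 among those for Itga11 and 0.47 among those for Itgb1.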

How the data were processed

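Raw read counts per gene were deposited by the authors for 39 libraries of single-end mouse femur RNA. Per the study's design text, reads were aligned with STAR to mm9 and counted with HTSeq 0.6.0 on Ensembl annotation. CPM is the name that text gives the values. Each column held only whole numbers and totals differed, so they were used as counts. It also gives 6 WT libraries for the Sik2/3 experiment, where the labels give 8. The 5 tally lines were left out of the library sizes. Symbols were matched for 37168 of 37583 identifiers and not for 415.

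Each mutant was compared with its own WT group with edgeR 4.0.16 in R 4.3.3 (TMM scaling, a minimum count of 10 and total of 15, robust quasi-likelihood test, Benjamini-Hochberg adjustment over all genes tested), and called at an adjusted p under 0.05. The fits were tested on simulated data in which few genes changed. Here 55.0% of genes under label DKO and 84.3% in C1HR were called, and that setting was not simulated. CPM were TMM-scaled, with 0.5 added before log2 values. Ratios were tested with scipy 1.17.1. Alternatives used DESeq2 1.42.0, limma 3.58.1, other scalings, no filter, and libraries left out. No 2 libraries agreed within sampling noise.

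The members and lists were chosen with earlier results of these data known. All members are named, and from each list of other integrins, ligands, adaptors and inhibitors up to 3 called genes with the smallest p in each comparison. Genes named for a change of sign or call with the settings, and Itgax, were chosen outside that rule, after their values were seen.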

Additional observations from a re-analysis of the deposited data

Results flagged for a closer look

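The C1HR effect differed from the effect in the libraries labelled DKO, by the edgeR test of the difference itself, for 9 of the 10 members. On the log2 scale the difference was 2.89 for Itgav, 2.25 for Itga5, 3.67 for Itga11, 1.14 for Itgb1 and 3.15 for Itgb5, each higher in C1HR. It was -4.54 for Itga4, -4.37 for Itgal, -2.97 for Itgam and -2.55 for Itgb2. Such a difference was called for 80.2% of all genes tested.

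In the WT group of the Sik2/3 experiment, WT 5 had a log2 ratio of Itgam to Ptprc of -0.38, far under the other 7 libraries of the group, by a gap above Dixon's critical value of 0.526 for 8 samples. It was the only such sample among 44 groups of values tested, where chance flags about 1 in 20.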

How the results depend on the processing

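The 9 members other than Itga8 kept their direction and their call in both comparisons and in the difference under each alternative scaling, tool, filter, block and left-out library that was run, except that Itga5, Itgb1 and Itgb2 under label DKO and Itgb1 in C1HR changed by less than 2-fold. Requiring a change of more than 2-fold lowered the calls from 8514 to 2695 under label DKO and from 11787 to 5430 in C1HR. With single libraries left out, calls ran from 7845 to 9390 under label DKO and from 11604 to 11821 in C1HR. The Itga8 difference between experiments changed sign under upper-quartile scaling, to 0.0044 (edgeR adjusted p = 0.989), and passed the threshold under library totals at -0.68 (edgeR adjusted p = 0.0164). The cause was not tested. Whether replicate numbers pair the libraries was not settled, and the main fits did not use them. The correlation of same-numbered deviations exceeded 0.1 in 5 of 8 pairs in the Sik2/3 experiment and 4 of 11 pairs in the C1HR experiment. In each experiment 2 libraries correlated best with their own number. With the replicate block 8422 and 11506 genes were called, and no call of a member changed. The ratios of Itgam to Ptprc and of Itga5 to Itgb1 under label DKO passed the test without WT 5 and WT 6 and not with them. Depth limits Itga8 most, with as few as 32 reads in a library.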

Other observations

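Among the adaptors at the integrin tail, some pairs of related genes differed in direction, and these pairs were chosen after their values were seen. Kindlin-2, Fermt2, fell under label DKO (-0.67, SE 0.11, edgeR adjusted p = 0.0002) and rose in C1HR (1.58), whereas kindlin-3, Fermt3, the kindlin of blood cells, rose (1.58, SE 0.20, edgeR adjusted p = 2.54e-05) and fell (-2.59). Alpha-parvin, Parva, had -0.93 and 1.85, and gamma-parvin, Parvg, which is made by blood cells, had 2.19 and -2.16. The other parvin of the list, Parvb, was not called under label DKO (0.28, edgeR adjusted p = 0.163) and fell in C1HR (-1.50, edgeR adjusted p = 2.03e-13). Talin-2, Tln2, had -1.18 and 1.58, and talin-1, Tln1, had 0.70 and -0.33. The values of Fermt2, Fermt3, Parva, Parvg, Tln1 and Tln2 passed the edgeR test in both comparisons.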
